A study of Mus musculus with 6 samples.

Results

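Genes of 3 phase II conjugation enzyme families were compared between the duodenal villus epithelium of double mutant and wild-type mice: the glutathione S-transferases (symbols starting with Gst), the UDP-glucuronosyltransferases (Ugt) and the cytosolic sulfotransferases (Sult). The members were all 45 protein-coding genes with one of these prefixes among the 20409 features of the deposited count table, namely 22 Gst, 16 Ugt and 7 Sult genes. The table holds poly(A)-enriched RNA sequencing counts from villi of 6 mice, 3 per group. The double mutant (DM) mice carried Smad4 fl/fl and Ctnnb exon3 fl/wt alleles with the Villin-CreERT2 transgene, which drives recombination in intestinal epithelial cells, on a C57BL6-enriched background. They lost Smad4 and gained a stabilised β-catenin after intraperitoneal tamoxifen at 0.05 g/kg on 4 consecutive days, and their villi were collected 7 days after induction. The wild-type (WT) mice were uninjected littermates, so tamoxifen itself and recombination cannot be told apart in this comparison. Mouse 1 of each group was male and mice 2 and 3 were female, and each library came from 1 mouse. Ages were not given in the labels.

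Phase II enzymes attach a polar group to drugs, dietary compounds, hormones, bile pigments and reactive by-products, which makes them easier to excrete. Glutathione S-transferases add glutathione to electrophiles, UDP-glucuronosyltransferases of the endoplasmic reticulum add glucuronic acid, and sulfotransferases of the cytosol add sulfate from the donor PAPS. The absorptive enterocytes of the small intestine carry out much of this conjugation before absorbed compounds reach the liver.

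Total counts lay between 19678507 and 26337318 per mouse, and 3 counts corresponded to 0.125 to 0.163 CPM (counts per 1000000 reads, scaled by TMM normalization). Markers of villus tip enterocytes (Ada, Nt5e, Slc28a2, Klf4, Krt20, Egfr) fell in 6 of 6 cases, from a summed 6035 to 6934 CPM in WT to 1418 to 1781 CPM in DM mice. Of 10 enterocyte markers 7 fell and 1 rose, with sums of 49930 to 59350 CPM in WT and 32030 to 34980 CPM in DM mice. Of 7 crypt stem and cycling markers 4 rose and none fell. Of 7 enteroendocrine markers 6 fell, with sums of 230 to 328 CPM in WT and 100.3 to 109.5 CPM in DM mice. Stromal, pancreatic, Brunner gland and liver marker lists each summed to 13.2 CPM or less in every mouse. The immune list summed to 66.3 to 112 CPM in WT and 49.5 to 85.5 CPM in DM mice. WT mouse 1 stood apart from all other libraries with 125 CPM of 7 goblet markers and 5.54 CPM of 5 Paneth markers, against at least 4659 and 126 CPM elsewhere. In bulk samples, fewer cells of a type and less RNA per cell cannot be told apart, and the part of these marker shifts in the results was not tested.

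Several members are near copies of each other, and 1 such pair is shown first because it bears on which gene a read belongs to. Gstp1 and Gstp2, the pi class genes, lie next to each other on chromosome 19 and their coding sequences of 633 bases differed at 12 positions (98.1% identity). The first 90 bases of both coding sequences, from the GENCODE transcripts of mm9, hold 6 of these differences, in capitals.
Gstp1: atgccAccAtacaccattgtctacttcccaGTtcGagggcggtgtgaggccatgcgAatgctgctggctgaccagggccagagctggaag
Gstp2: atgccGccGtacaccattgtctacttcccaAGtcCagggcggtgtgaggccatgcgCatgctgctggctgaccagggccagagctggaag
Of all 50-base stretches of the Gstp2 transcript, 67.9% also occurred in a Gstp1 transcript. The share was 89.7% for Gsta1 (mostly with the predicted gene Gm3776), 34.1% for Ugt2b38 with Ugt2b5, 12.7% for Gstm1 and 15.3% for Gstm3. The Ugt1a genes each have their own first exon and share the remaining exons, so that 17.3% of the exon bases of Ugt1a1 and 28.4% of those of Ugt1a7c belonged to that gene alone. How reads in such shared stretches were assigned is not given in the sources used here, and values of these genes are uncertain to that extent.

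Proximal promoters were taken from RefSeq (GRCm38.p6, a different build from the mm9 of the counts), which gave 51 windows for 40 of the 45 members, each from 250 bases before to 50 bases after a transcription start. The 13-base HNF1 consensus, with at most 2 mismatches on either strand, occurred in 5 of the 51 windows and in 1.36% of all 32851 RefSeq promoter windows. HNF1 proteins are transcription factors of the liver and the intestinal epithelium. The 5 stretches of 100 bases, from 110 to 11 bases before the start, are printed with the match in capitals because 3 of them belong to members that fell.
Ugt1a1: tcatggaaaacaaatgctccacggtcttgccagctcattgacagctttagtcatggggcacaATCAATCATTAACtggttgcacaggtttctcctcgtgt
Ugt2a3: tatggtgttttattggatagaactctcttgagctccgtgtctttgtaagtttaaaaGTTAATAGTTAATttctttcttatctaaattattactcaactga
Sult1d1: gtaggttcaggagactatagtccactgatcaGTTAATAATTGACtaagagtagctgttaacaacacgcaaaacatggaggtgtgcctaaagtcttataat
Ugt1a9: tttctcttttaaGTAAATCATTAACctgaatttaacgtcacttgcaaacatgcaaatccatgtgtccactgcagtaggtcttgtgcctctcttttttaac
Ugt1a5: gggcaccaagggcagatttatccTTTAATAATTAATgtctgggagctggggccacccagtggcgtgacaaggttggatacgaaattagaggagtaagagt
In GRCm38.p6 these stretches are chr1:88211849-88211948 on the plus strand (Ugt1a1), chr5:87337206-87337305 on the minus strand (Ugt2a3), chr5:87569017-87569116 on the minus strand (Sult1d1), chr1:88070669-88070768 on the plus strand (Ugt1a9) and chr1:88165902-88166001 on the plus strand (Ugt1a5). The matches began 48, 54, 79, 98 and 87 bases before the start, in that order. Ugt1a1, Ugt2a3 and Sult1d1 were lower in DM villi, Ugt1a9 missed the threshold and Ugt1a5 did not pass the filter on low counts, as given below.

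Other motifs were searched on both strands in the same windows. The first 10 bases of the HNF1 consensus, which overlap the longer motif and were allowed no mismatch, occurred in 3 of 51 member windows and in 0.399% of all windows. The antioxidant response core TGACNNNGC occurred in 3 member windows (12.4% of all windows), and the xenobiotic response core GCGTG in 13 (32.4%). The CDX2 cores TTTATNG and TTTACNG occurred in 4 and 5 member windows (10.9% and 9.11%). The TCF cores CTTTGAT and CTTTGTT occurred in 1 member window each (3.73% and 5.85%). The SMAD palindrome GTCTAGAC occurred in 0 member windows (0.213%) and the GC-rich SMAD sequence GGCGCC in 3 (11.9%). Such matches describe letters in these windows and are not evidence of binding.

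Conjugation enzyme genes took a smaller part of the counts in double mutant villi in all 3 families, and most of the net fall lay in 7 genes with high counts (Ugt2b34, Gstm3, Gsto1, Gstm1, Sult1d1, Sult1b1 and Sult2b1). The means of these 7 genes fell by 2153 CPM together, beside a net fall of 2256 CPM over all members. Summed over all 45 members, normalized counts were 6607, 5172 and 5221 CPM in WT mice 1 to 3 and 3732, 3047 and 3453 CPM in DM mice 1 to 3. Every DM mouse lay below every WT mouse. The sums were 2910 ± 400 CPM in WT and 1947 ± 73.3 CPM in DM for Gst genes (SD, n = 3 per group), 1656 ± 344 and 845 ± 241 CPM for Ugt genes, and 1100 ± 125 and 620 ± 33.8 CPM for Sult genes. These are log2 ratios of -0.58, -0.97 and -0.83, given without a test because they are descriptions of chosen genes.

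**Figure D1:**
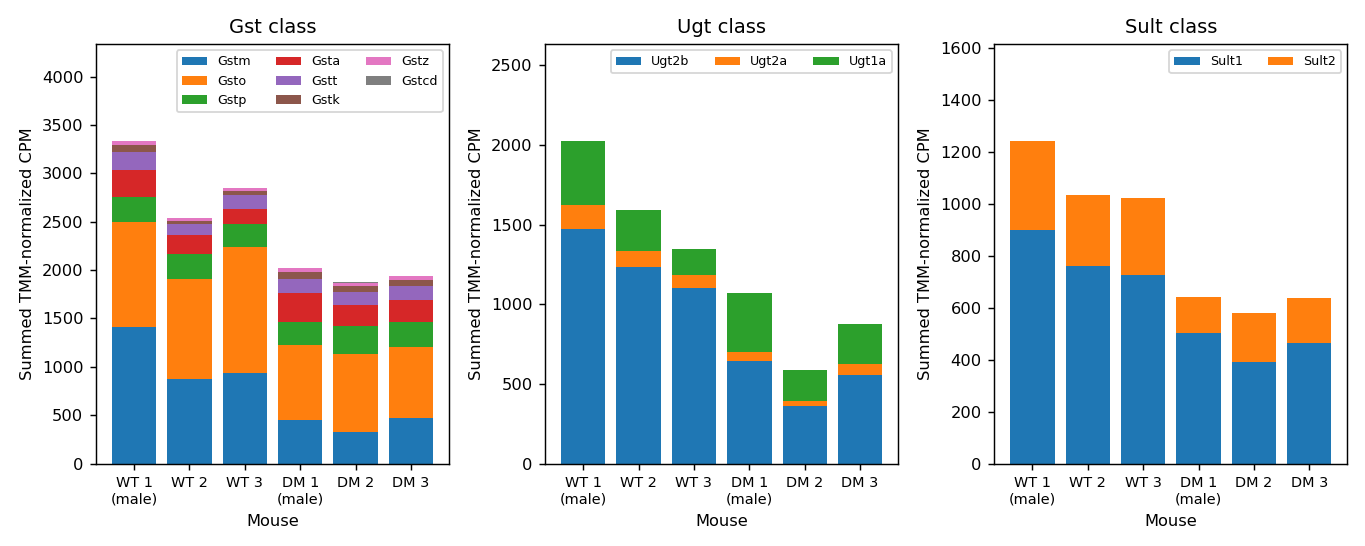
Summed TMM-normalized CPM of the Gst, Ugt and Sult genes in each mouse (bars, axis from 0), stacked by subfamily, with WT mice on the left and DM mice on the right of each panel. The Gstm and Ugt2b layers were smaller in all 3 DM mice (323 to 474 and 360 to 646 CPM) than in all 3 WT mice (870 to 1416 and 1100 to 1470 CPM), whereas the Ugt1a layers overlapped; subfamilies summing to under 1 CPM are not drawn.

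Of the 45 members, 37 passed the filter on low counts and were tested, and 4 were higher and 15 lower in DM villi at an adjusted p under 0.05 (edgeR's quasi-likelihood test, Benjamini-Hochberg adjustment over all genes). That is 51.4% of the tested members, beside 36.8% of all 13346 genes tested. By direction, 40.5% of the members were lower and 10.8% higher, beside 17% and 19.7% of all genes. Scaled by library size alone the split over all genes was 3732 higher and 1425 lower in place of 2632 and 2273, and that of the members 5 and 14. With a log2 fold change of at least 1 in size, 3 members were higher and 11 lower, where 10.9% and 6.23% of all genes passed. The median log2 fold change was -0.46 over the tested members and 0.02 over all genes. In 15 members all DM mice lay below all WT mice and in 5 they lay above (24.2% and 28.1% of all genes, 52.4% in either direction), and 17 overlapped. The filter level, 0.498 CPM before TMM scaling, was reached by all mice of both groups for 34 of the 37 members, of which 3 were higher and 14 lower. Sult1a1 and Sult6b1 reached it in all mice of the DM group only and Ugt2b38 in those of the WT group only. Sult1a1 and Ugt2b38 were called in the direction of the group that carried them through the filter. Without WT mouse 1, the library that stood apart, 7 members were higher and 14 lower.

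**Figure D2:**
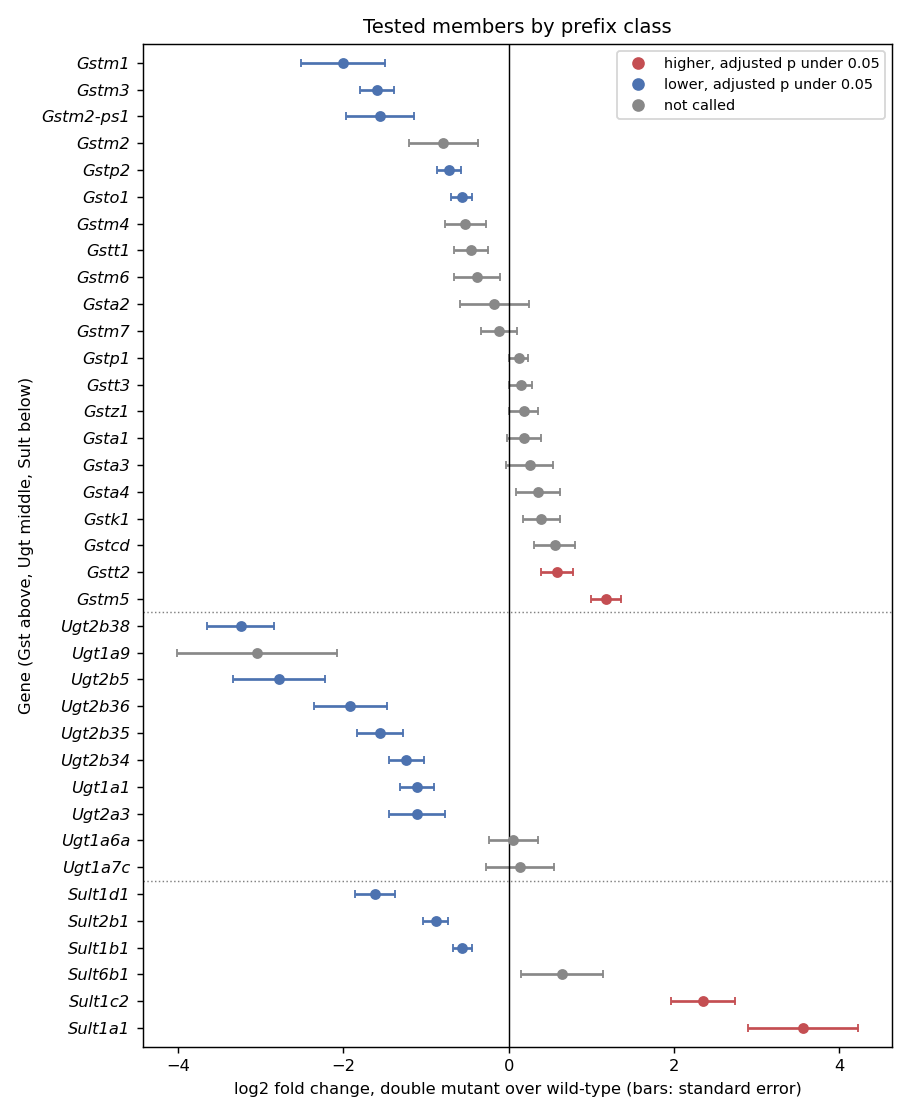
Log2 fold change of DM over WT (horizontal axis, bars show the standard error) for the 37 tested members, grouped as Gst, Ugt and Sult from top to bottom. Blue points are the 15 members called lower, red points the 4 called higher and grey points the 18 not called; the called values run from -3.24 (Ugt2b38) to 3.57 (Sult1a1).

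Among 21 tested Gst genes, 5 were lower and 2 higher, with a median log2 fold change of -0.12. The 33.3% called was close to the 36.8% of all genes. Of the 5 lower genes, 3 were of the mu class (Gstm), whose enzymes conjugate a broad range of aromatic electrophiles and epoxides. Summed Gstm counts were 1074 ± 298 CPM in WT and 417 ± 82.3 CPM in DM mice (SD, n = 3), whereas the alpha class sums were 208 ± 64 and 248 ± 45.4 CPM.

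Gstm3 (ENSMUSG00000004038, chr3:107745251-107772201, mm9) was the most abundant mu class gene per kb of exon. Its counts were 745, 614 and 632 CPM in WT mice 1 to 3 and 254, 153 and 253 CPM in DM mice 1 to 3. The groups were well apart, with a WT to DM ratio of 3.02 between the means. The log2 fold change was -1.59 ± 0.20 (standard error, adjusted p = 0.000809), and it was called in every fit that left out 1 mouse.

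Gstm1 (ENSMUSG00000058135, chr3:107815173-107820891) had 423, 134 and 174 CPM in WT mice and 58.5, 43 and 80.2 CPM in DM mice. The groups did not overlap, but the male WT mouse lay far above both females. The log2 fold change was -2.01 ± 0.51 (adjusted p = 0.0272), and -1.34 without WT mouse 1 (adjusted p = 0.00427). The call was lost without DM mouse 1, 2 or 3 in turn (adjusted p = 0.0898, 0.108 and 0.0522), and without a filter on low counts (0.0863).

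Gstm2-ps1 (ENSMUSG00000091578, chr5:117082917-117083471), annotated as protein-coding although its symbol marks a pseudogene, had 7.25, 2.94 and 3.49 CPM in WT and 1.17, 1.53 and 1.95 CPM in DM mice. It too did not overlap between groups (log2 fold change -1.56 ± 0.41, adjusted p = 0.0175). Of its 50-base stretches, 41.1% occurred in other genes, 23% in Gstm1. The call was lost without DM mouse 1 or 2 (adjusted p = 0.0638 and 0.0582), and without this gene the members called lower number 14 of 36.

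Gstm5 (ENSMUSG00000004032, chr3:107698739-107701604) went the other way. It had 9.46, 6.85 and 8.29 CPM in WT mice and 17.8, 21.7 and 16.5 CPM in DM mice, so that the lowest DM value exceeded the highest WT value. The log2 fold change was 1.18 ± 0.18 (adjusted p = 0.00174), called in every fit that left out 1 mouse. An antisense transcript, 4933431E20Rik, overlaps part of its exons, and 86.1% of its exon bases are free of other genes. Reads of the pair cannot be told apart unless strand was used.

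The 7 Gstm genes of chromosome 3 lie within 149 kb (chr3:107698739-107847812, mm9), from Gstm5 through Gstm7, Gstm6, Gstm3, Gstm2 and Gstm1 to Gstm4. All 7 were tested, with 1 higher at one end, 2 lower and 4 not called, a share called that is close to that of all genes (36.8%). The uncalled log2 fold changes were -0.12 for Gstm7 (adjusted p = 0.713), -0.38 for Gstm6 (0.328), -0.79 for Gstm2 (0.186) and -0.53 for Gstm4 (0.132). Without WT mouse 1 they were 0.16, 0.05, -0.12 and -0.16 in that order (adjusted p = 0.485, 0.797, 0.62 and 0.418).

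Gsto1 (ENSMUSG00000025068, chr19:47929460-47939280), an omega class enzyme with thioltransferase and dehydroascorbate reductase activity, was the most abundant member per kb of exon, at 485 CPM per kb over both groups. Its counts were 1085, 1034 and 1304 CPM in WT and 772, 807 and 729 CPM in DM mice. The groups did not overlap, and the lowest WT mouse was well above the highest DM mouse (log2 fold change -0.57 ± 0.13, adjusted p = 0.00872). Gsto1 made up 39.6% of all Gst counts in both groups.

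Gstp1 (ENSMUSG00000060803, chr19:4035411-4037921), the abundant pi class enzyme, had 233, 243 and 215 CPM in WT and 224, 278 and 249 CPM in DM mice. The groups overlapped (log2 fold change 0.12 ± 0.12, adjusted p = 0.451). Its near copy Gstp2 (chr19:4040291-4042221) had 20.9, 20.9 and 24.7 CPM in WT and 14.3, 12.2 and 13.9 CPM in DM mice. Gstp2 was lower in every DM mouse (log2 fold change -0.72 ± 0.14, adjusted p = 0.00513), with the reservation on shared sequence given above.

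Gstt2, a theta class gene, was higher by 0.59 on the log2 scale (adjusted p = 0.0451). Its WT values of 17.2 to 25.7 CPM lay just under the DM values of 26.5 to 37.9 CPM. The call was lost in 4 of the 6 fits without 1 mouse, all but those without WT mouse 1 or DM mouse 1, where its adjusted p rose to at most 0.144. It was also lost with RLE size factors (adjusted p = 0.0543), with sex as a covariate (0.0612) and with the replicate number as a block (0.0845).

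The other 14 tested Gst genes were not called, with adjusted p between 0.109 and 0.774. None of the 4 alpha class genes, which handle lipid peroxides and reactive aldehydes, passed: log2 fold changes were 0.19 for Gsta1, -0.17 for Gsta2, 0.25 for Gsta3 and 0.36 for Gsta4. Gsta4 had an adjusted p of 0.338, which became 0.0282 with sex as a covariate and 0.0136 without WT mouse 1. Without WT mouse 1, Gstk1 of mitochondria and peroxisomes and Gstz1 of tyrosine breakdown also became higher (log2 fold changes 0.69 and 0.42), against 0.40 and 0.18 with all mice. Gstt1 and Gstt3 had -0.46 and 0.15. Without WT mouse 2, Gstt1 and Gstm4 became lower (log2 fold changes -0.63 and -0.72, adjusted p = 0.0448 and 0.0493). For Gstcd it was 0.56 (adjusted p = 0.109), with all DM mice above all WT mice, and it was called with library size alone (0.0399). Gsta2 and Gstm7 changed sign with library size alone (0.03 and 0.09), a scaling that moved the median of all genes from 0.02 to 0.22.

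Every tested Ugt2 gene was lower, and of the Ugt1a genes 1 of 4; the difference between the subfamilies was not tested. Over the class, 7 of 10 tested genes were lower (70%, beside 17% of all genes) and 0 were higher, with a median of -1.40. All 7 also passed a log2 fold change of -1, where 6.23% of all genes did. These counts include Ugt2b38, which reached the filter level in all mice of the WT group only. Its call is therefore no independent support. Summed Ugt2b counts were 1268 ± 187 CPM in WT and 520 ± 146 CPM in DM mice, while summed Ugt1a counts were 276 ± 121 and 272 ± 84.3 CPM (SD, n = 3). The enterocyte and villus tip marker sums given above moved in the same direction as the Ugt2 genes, and their part in this was not tested.

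Ugt2b34 (ENSMUSG00000029260, chr5:87318792-87335962) carried most of the class, with 70.5% of all Ugt counts in WT and 58.1% in DM mice. Enzymes of this subfamily glucuronidate steroids, bile acids and drugs. Its counts were 1329, 1137 and 1005 CPM in WT and 603, 341 and 525 CPM in DM mice. The lowest WT value was well above the highest DM value (log2 fold change -1.24 ± 0.21, adjusted p = 0.00296).

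Ugt2b35 (ENSMUSG00000035811, chr5:87429885-87442299) had 81.2, 63 and 70.2 CPM in WT and 34.2, 15 and 23.8 CPM in DM mice. It was lower in every DM mouse, with a log2 fold change of -1.55 ± 0.28 (adjusted p = 0.00444). Ugt2a3 (ENSMUSG00000035780, chr5:87753997-87766220) had 152, 102 and 82 CPM in WT and 56.9, 30.7 and 68.4 CPM in DM mice. Here the groups came close, and the call (log2 fold change -1.11 ± 0.34, adjusted p = 0.0419) was lost in 4 of 6 fits without 1 mouse: without WT mouse 1 or 2 or DM mouse 1 or 2, with adjusted p up to 0.102. It was also lost with library size alone (0.07) and without a filter on low counts (0.123).

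The largest falls in the class were in genes of low level. Ugt2b38 (ENSMUSG00000061906, chr5:87838967-87853228) had 7.62, 9.47 and 6.67 CPM in WT and 0.845, 0.371 and 1.28 CPM in DM mice, a log2 fold change of -3.24 ± 0.40 (adjusted p = 0.000666). Only in the WT group did all mice reach the filter level for Ugt2b38, so its call is no independent support. Ugt2b5 (ENSMUSG00000054630, chr5:87553981-87569365) had 43.3, 20.2 and 14.5 CPM in WT and 5.82, 1.9 and 3.66 CPM in DM mice, a change of -2.78 ± 0.56 (adjusted p = 0.0101), and -2.19 without WT mouse 1. In neither gene did the groups overlap, but both share sequence with each other. Ugt2b36 (ENSMUSG00000070704, chr5:87494952-87521580) had 8.75, 4.13 and 3.59 CPM in WT and 2.16, 1.16 and 1.04 CPM in DM mice. It was lower without overlap (log2 fold change -1.92 ± 0.44, adjusted p = 0.0102), and the male was the highest mouse of both groups.

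The Ugt2 genes and the sulfotransferase genes Sult1b1 and Sult1d1 are neighbours on chromosome 5. Between Ugt2b34 and Sult1d1 (chr5:87318792-87998052, mm9, 679 kb) the table listed 11 genes, of which 10 were members and 8 were tested. All 8, among them Ugt2b38 with the reservation on its call given above, were lower in DM villi, where 17% of all genes were. No other gene of the interval passed the filter on low counts, so the interval offers no comparison with genes of other function.

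**Figure D3:**
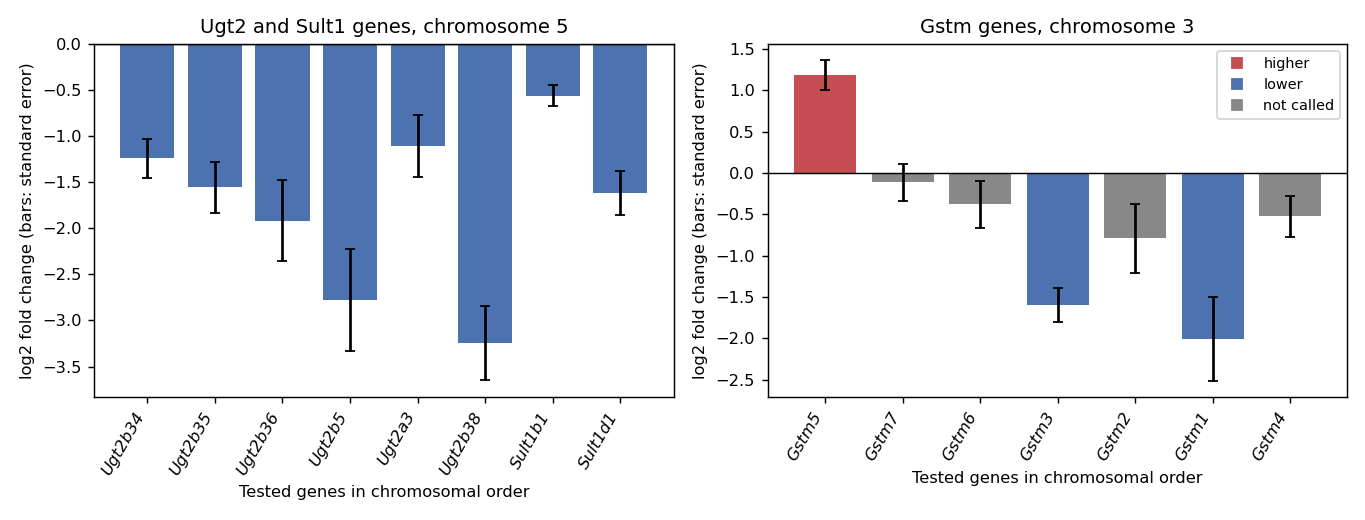
Log2 fold change of DM over WT (bars from 0, error bars show the standard error) for tested genes in chromosomal order, in the chromosome 5 group from Ugt2b34 to Sult1d1 and the chromosome 3 group from Gstm5 to Gstm4; blue is lower, red higher and grey not called. All 8 bars on chromosome 5 point down, from -0.56 (Sult1b1) to -3.24 (Ugt2b38), whereas chromosome 3 runs from 1.18 (Gstm5) to -2.01 (Gstm1).

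Among the Ugt1a genes, Ugt1a1 was lower. It encodes the enzyme that glucuronidates bilirubin (ENSMUSG00000089960, chr1:90108534-90115572, mm9). Its counts were 31.4, 39.4 and 26 CPM in WT and 12.4, 13.8 and 18.6 CPM in DM mice. The groups did not overlap, and the log2 fold change of -1.11 ± 0.20 (adjusted p = 0.00371) was called in every fit without 1 mouse.

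Ugt1a7c (ENSMUSG00000090124, chr1:89991637-90116577), the Ugt1a gene with the highest count, had 335, 204 and 119 CPM in WT and 331, 173 and 221 CPM in DM mice. The groups overlapped across nearly their whole range, with both males highest (log2 fold change 0.14 ± 0.42, adjusted p = 0.822). Per kb of all exons its mean level was 71.4 CPM, under the 191 CPM per kb of Ugt2b34. Per kb of exon held by no other gene it was 252 CPM, above Ugt2b34, so the order of these 2 depends on how shared exons are counted. Ugt1a6a, which acts on planar phenols, overlapped between groups (log2 fold change 0.06, adjusted p = 0.895).

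Ugt1a9 had the largest standard error of the 10 tested Ugt genes. Its counts were 20.5, 1.52 and 10.1 CPM in WT and 1.97, 1.35 and 0.57 CPM in DM mice. WT mouse 2 fell within the DM range, and the log2 fold change of -3.04 ± 0.97 was not called (adjusted p = 0.0551). Ugt1a9 was called in 2 of 8 other fits with all mice, those with DESeq2 (0.0104) and with sex as a covariate (0.0367). Of 6 fits without 1 mouse it was called in 1, that without WT mouse 2 (0.00436). Without WT mouse 1 the log2 fold change was -2.16 (adjusted p = 0.11).

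Of 6 tested Sult genes, 3 were lower and 2 higher (50% and 33.3%, beside 17% and 19.7% of all genes), with a median log2 fold change of 0.05. The higher count includes Sult1a1, which, like the uncalled Sult6b1, entered the test through the DM mice alone. The 33.3% therefore rests in part on a call that is no independent support. The 3 lower genes were the abundant ones, holding 99.8% of Sult counts in WT and 98.6% in DM mice, and the 2 higher genes were of low level.

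Sult1b1 (ENSMUSG00000029269, chr5:87942364-87967220), which sulfates phenols and thyroid hormones, had 551, 514 and 528 CPM in WT and 396, 321 and 364 CPM in DM mice. Its WT values lay within a narrow band above all DM values (log2 fold change -0.56 ± 0.12, adjusted p = 0.0062). At 160 CPM per kb of exon it was the most abundant Sult gene.

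Sult2b1 (ENSMUSG00000003271, chr7:52985353-53014982), which sulfates cholesterol and other hydroxysteroids, had 345, 274 and 296 CPM in WT and 137, 188 and 171 CPM in DM mice. The groups did not overlap (log2 fold change -0.88 ± 0.15, adjusted p = 0.00245). Sult1d1 (ENSMUSG00000029273, chr5:87983670-87998052), which acts on catecholamines, had 346, 245 and 197 CPM in WT and 97.3, 64 and 95.3 CPM in DM mice, the largest fall among the Sult genes (log2 fold change -1.62 ± 0.24, adjusted p = 0.00184). It held 23.6% of Sult counts in WT and 13.7% in DM mice.

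Sult1a1 (ENSMUSG00000030711, chr7:133816379-133819946), a phenol sulfotransferase, was at the edge of detection in WT villi, with 1, 3 and 4 reads in mice 1 to 3 against 28, 20 and 55 in DM mice. In CPM these were 0.0416, 0.163 and 0.202 against 1.31, 0.928 and 2.61. It entered the test through the DM mice alone, so its call is no independent support. The fitted log2 fold change of 3.57 ± 0.67 (adjusted p = 0.00408) is given as a description, and so few WT reads fix its size poorly. Sult1c2 (ENSMUSG00000023122, chr17:53968962-53985664) had 1.79, 1.09 and 0.809 CPM in WT and 8.64, 6.03 and 4.41 CPM in DM mice. It was higher in every DM mouse (log2 fold change 2.35 ± 0.38, adjusted p = 0.0022). Sult1c2 was called in every fit without 1 mouse. Sult6b1 stayed at 0.253 to 0.696 CPM over both groups and was not called (log2 fold change 0.65, adjusted p = 0.336).

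**Figure D4:**
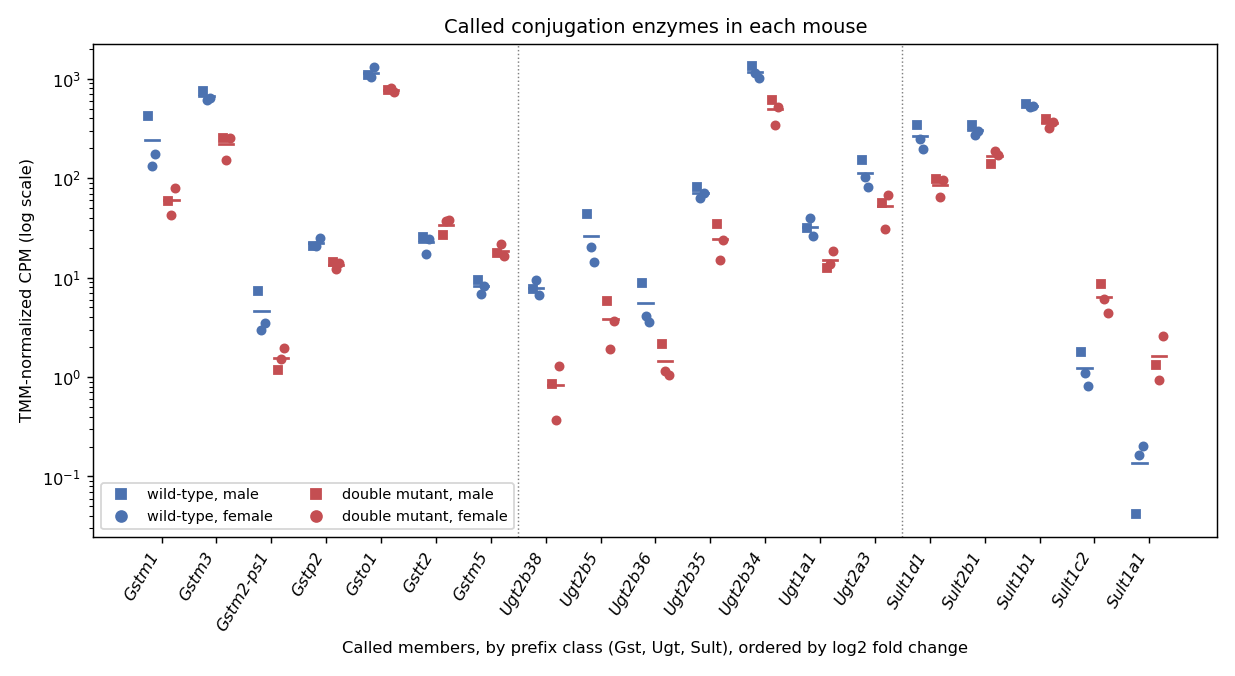
TMM-normalized CPM (vertical log axis) of the 19 called members in each mouse, with WT in blue and DM in red, males as squares and females as circles, and group means as short lines. These genes were selected by the test, so that separate groups are the rule among them (52.4% of all genes tested did not overlap), and the levels span from 0.0416 CPM (Sult1a1 in WT mouse 1) to 1329 CPM (Ugt2b34 in WT mouse 1).

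The male mouse often had the highest value of its group. Among the 37 tested members it was highest in 28 within WT (75.7%, beside 37.5% of all genes), in 21 within DM (56.8%, beside 36.8%) and in 18 within both (48.6%, beside 11.9%). For the Ugt genes it was highest in both groups in 7 of 10. With 1 male per group, sex and the individual mouse cannot be told apart, and in WT the male was also the library that stood apart.

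The 8 members that did not pass the filter were Gsto2, Sult4a1, Ugt1a2, Ugt1a5, Ugt1a6b, Ugt2b1, Ugt2b37 and Ugt8a, the last of which makes galactosylceramide rather than glucuronides. None had more than 22 reads in any mouse. Fitted without the filter, 0 of the 8 were called by edgeR (adjusted p between 0.275 and 0.928) and 0 had an unadjusted p under 0.05. DESeq2 gave an adjusted p for 3 of them, with 0 called and 0 at an unadjusted p under 0.05. A further 16 annotated genes with the prefixes had no row in the table and were not analysed here, among them Sult1e1, 6 Sult2a genes, Ugt2a1, Ugt1a10 and Gstt4.

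The cosubstrate, transport and regulatory genes around these enzymes were counted by list, beside the 19.7% higher and 17% lower among all genes. With 5 to 22 tested genes a list, these counts are descriptions. Of 5 genes listed under UDP-glucuronate supply, 2 were lower (Slc35d1 and Ugdh) and 1 higher. The higher one was Slc35a1, named after its value was seen, which carries CMP-sialic acid and not UDP-glucuronate (log2 fold change 1.15, adjusted p = 0.00241). The gene with the smallest p was Slc35d1, which carries UDP-glucuronate into the endoplasmic reticulum, with 143, 154 and 111 CPM in WT and 67, 67.8 and 63.5 CPM in DM mice (log2 fold change -1.04, adjusted p = 0.000856). Of 10 genes of PAPS and sulfate supply, 3 were higher and 3 lower. Their summed counts overlapped between groups, at 4148 to 5571 CPM in WT and 4579 to 5064 CPM in DM mice. The sulfate transporter Slc26a2 had 247, 237 and 193 CPM in WT and 68.2, 38 and 69.1 CPM in DM mice (log2 fold change -1.95, adjusted p = 0.000698). Neither gene overlapped between groups.

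Of 10 tested genes of glutathione supply and mercapturate formation, 5 were lower and 1 higher. Gclc, the catalytic subunit of the rate-limiting step of glutathione synthesis, had 60.7, 59 and 68.2 CPM in WT and 28.3, 24.4 and 22.3 CPM in DM mice (log2 fold change -1.33, adjusted p = 0.000275). Of 5 tested genes of the MAPEG family, to which the membrane-bound glutathione transferases belong, 2 were higher and 1 lower. The higher ones, named after their values were seen, were Mgst1 and Mgst2 (log2 fold changes 0.93 and 0.71, adjusted p = 0.0452 and 0.0081). Mgst3 was not called (0.04, adjusted p = 0.844). The lower one was Alox5ap, the 5-lipoxygenase activating protein, which binds arachidonate and is abundant in tuft cells and leukocytes (log2 fold change -3.99, adjusted p = 0.000175). Tuft markers moved with it, from a summed 92.3 to 125 CPM in WT to 12.5 to 15.3 CPM in DM mice, and their part in the result was not tested.

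Of 8 tested other conjugating enzymes, 2 were lower and 1 higher, and the 37.5% called was close to the 36.8% of all genes. The smallest p was that of Baat, which joins bile acids to amino acids, at -2.17 on the log2 scale (adjusted p = 0.0233). Of 8 tested hydrolases, 3 were lower and 2 higher. They comprise the glucuronidase Gusb, the sulfatases Arsa (lower) and Arsb (higher) of the lysosome, and 5 carboxylesterases, which cleave esters rather than these conjugates and of which Ces2b and Ces2c were lower. Apart from Gusb, these genes were named after their values were seen. The lysosomal glucuronidase Gusb had 15.2, 16.8 and 17.1 CPM in WT and 52.9, 70 and 53.3 CPM in DM mice (log2 fold change 1.84, adjusted p = 0.000114). It was higher in every DM mouse than in any WT mouse.

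Of 8 tested efflux transporters, 3 were lower and 2 higher, with the basolateral conjugate exporter Abcc3 at -0.81 (adjusted p = 0.00152). Of 22 regulators, which included nuclear receptors, NRF2 and intestinal transcription factors, 6 were lower and 4 higher (27.3% and 18.2%, beside 17% and 19.7% of all genes). The fatty acid receptor Ppard had the smallest p (log2 fold change -0.69, adjusted p = 0.00141), with 262 to 298 CPM in WT and 168 to 179 CPM in DM mice.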

How the data were processed

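The authors aligned poly(A) RNA sequencing reads of duodenal villi to mm9 with HISAT2 and deposited raw read counts per gene from featureCounts, per the labels and the study's methods. Strand, multi-mapping and annotation settings are not given in the sources used here. Of 20409 rows, 20073 had Ensembl identifiers and 336 were unannotated features, and 20032 identifiers matched GENCODE vM1 (mm9), which gave symbols, biotypes and exon lengths. Counts of all genes in 6 mice (3 per group) were tested with edgeR 4.0.16 in R 4.3.3 (filterByExpr, TMM, robust quasi-likelihood test, no covariates), with Benjamini-Hochberg adjustment and a threshold of 0.05. The fit was also run on simulated counts with the same dispersion for all genes and no outlying library. That run does not bear on how sure the calls given here are. A standard error is the log2 fold change divided by the root of its F. Each group's samples are separate mice with 1 library each. Alternatives were DESeq2 1.42.0, limma-voom 3.58.1, other scalings and filters, a replicate block, sex as a covariate, fold thresholds and leaving out each mouse. Full values are given for members called with an absolute log2 fold change of at least 1 and for the 2 most abundant per kb of each class, and of each pathway list the gene with the smallest p is named; Gstp2, Gstt2 and Ugt1a9 are given in more detail than that rule asks. The members, lists and motifs were chosen with earlier results of these data known. Intervals on counts are not given, and 3 counts are taken as the floor of detection. RefSeq promoters (GRCm38.p6) were searched for motifs without converting coordinates.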

Additional observations from a re-analysis of the deposited data

How the results depend on the processing

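No called member and no sum over the Gst, Ugt or Sult genes turned direction under the alternatives run. The uncalled members Gsta1, Gsta2, Gstm6, Gstm7, Ugt1a6a and Ugt1a7c changed sign in at least 1 of them, and the median over all genes went from 0.02 to -0.005 with RLE size factors. For the 37 tested members, DESeq2 kept 36 calls on the same side of the threshold and limma-voom all 37. Among the counts of members, 4 higher and 15 lower became 2 and 3 at a log2 fold change of at least 2, and leaving out 1 mouse gave 3 to 7 higher (7 without WT mouse 1) and 12 to 17 lower. The 2 higher Gst genes became 1 with RLE size factors, 1 with the replicate block, 1 at a log2 fold change of at least 1 and 0 at 2, and 1 to 5 without 1 mouse (5 without WT mouse 1, 1 without WT mouse 2 or 3 or DM mouse 2 or 3). The 5 lower Gst genes became 3 and 1 at these fold thresholds and 3 to 7 without 1 mouse (3 without DM mouse 1 or 2). The 7 lower Ugt genes became 2 at a log2 fold change of at least 2, and the 3 lower Sult genes became 1 and 0 at 1 and 2. With library size alone, 1425 genes in all were lower in place of 2273, and the log2 ratios of summed Gst and Sult counts were -0.39 and -0.63 in place of -0.58 and -0.83. These changes at fold thresholds follow from their construction, and the cause of the others was not tested.

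The replicate numbers were not used as pairs in the main test. Same-numbered WT and DM mice deviated from their group means with correlations of 0.02, -0.11 and 0.01 across genes. With 3 mice per group, such correlations cannot show whether the mice were matched. The paper describes its replicates as matched for age and sex between groups, and mouse 1 was male in both. With the number as a block, 2084 genes were higher and 1750 lower, and of the member calls only that of Gstt2 was lost (adjusted p = 0.0845). With 3 mice per group, the calls of Gstm1, Gstm2-ps1, Gstt2 and Ugt2a3 each depended on single mice, and 8 members with few reads were tested only under other filters, DESeq2 or without 1 mouse, with 0 called.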
